A study of Homo sapiens with 6 samples.

Results

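The ERK pathway raises the transcription of its own inhibitors and of other output genes. Of such genes, 10 were examined in SK-MEL-28 cells, an established BRAF-mutant melanoma line. The members were DUSP4, DUSP6, SPRY2, SPRY4, SPRED1, SPRED2, ETV1, ETV4, ETV5 and PHLDA1, taken by name as known outputs of mitogen-activated protein kinase (MAPK) signalling in BRAF-mutant melanoma. The rule uses no measured value, but the list was drawn up with earlier results of these data known. They are 10 of the 60504 genes in the count table, and all 10 were among the 16195 genes tested. RNA-seq had been carried out on 3 libraries from cells given an EV plasmid (the control) and 3 from cells given a plasmid for forced expression of HDAC8, a histone deacetylase. Both kinds of cell were SK-MEL-28, were transfected with a lipid reagent and were kept in hygromycin, so the EV libraries also come from transfected and selected cells. Whether each was a pool or a clone is not stated, and nothing says that the 3 replicates of a label came from separate transfections, so the p-values below measure the spread between these libraries, which may be technical.

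In the ERK cascade, RAS activates the RAF kinases, RAF activates MEK and MEK activates ERK, which enters the nucleus and changes transcription factors. Cells in which this cascade is constantly active, such as BRAF-mutant melanoma cells, keep a group of ERK-induced genes at a high level, and the RNA of these genes is widely read as a measure of pathway output. Dual-specificity phosphatases remove phosphate from ERK itself, Sprouty and SPRED proteins act further up at RAS and RAF, and the PEA3 factors ETV1, ETV4 and ETV5 are ETS-family transcription factors that carry the signal on to further genes. Capicua (CIC) is a repressor that holds PEA3 and DUSP6 genes down until ERK removes it.

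Library totals lay between 20850018 and 29822917 estimated counts. Levels are given as CPM, counts in proportion to library sizes scaled by the trimmed mean of M values (TMM), on which 3 counts, the smallest level taken as detectable, equal 0.102 to 0.148 CPM; the least counted member value was 1514 counts. The first principal component, with 48.2% of the variance, separated the labels. Along the second, with 16.6%, HDAC8 replicate 1 stood at -41.6 against 16.9 and 24.8 for the other libraries of its label and -3.46 to 3.20 for EV, so the fold changes, the counts of calls and the ratios of related genes below were also computed without each library. Libraries of the same label differed by more than counting noise (chi-square per degree of freedom of 4.61 to 16.9), so none was a duplicate. By this measure it was HDAC8 replicate 3 that stood apart within its label. Its values were 16.9 against replicate 1 and 15.2 against replicate 2, while replicates 1 and 2 gave 6.19.

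HDAC8 itself did not separate the labels. The gene on chromosome X had 16.6, 15.2 and 11.8 CPM in EV replicates 1 to 3 and 14.2, 15.2 and 13.5 CPM in the HDAC8 replicates. Its groups overlapped, and its log2 fold change of HDAC8 over EV was -0.02 ± 0.13 (SE; edgeR quasi-likelihood, Benjamini-Hochberg adjusted p = 0.924). The RNA of the targeted gene therefore gives no check of the labels, and whether plasmid transcripts were counted on this gene is not stated in the sources used here. The samples are called the libraries labelled HDAC8 for this reason.

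Promoter sequences of the members with the lowest and the highest log2 fold change, DUSP6 and ETV1, are shown because both carry the letters bound by CIC and because these genes moved in opposite directions. RefSeq entries (GRCh38.p14, 250 bases before to 50 after an annotated start) were matched for 7 of the 10 members, with 15 windows in all. No window is reported for DUSP4, ETV4 and ETV5, so nothing is said here of the letters in their promoters. Capitals mark matches on either strand to an ETS site (CCGGAA), a CIC site (TGAATGAA, TGAATGGA, TCAATGAA or TCAATGGA), an MITF site (TCANGTG), an AP-1 site (TGANTCA) or a cAMP response element (TGACGTCA), none of which overlap another in the windows shown. The DUSP6 window is chr12:89352452-89352751 and the ETV1 window chr7:13991376-13991675, both on the minus strand and written 5′ to 3′.
DUSP6 promoter: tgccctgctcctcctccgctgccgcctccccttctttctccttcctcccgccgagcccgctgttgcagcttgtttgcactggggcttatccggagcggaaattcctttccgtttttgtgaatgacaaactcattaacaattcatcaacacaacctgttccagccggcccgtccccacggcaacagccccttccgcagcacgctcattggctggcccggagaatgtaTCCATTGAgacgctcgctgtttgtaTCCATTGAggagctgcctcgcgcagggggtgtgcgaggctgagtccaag
ETV1 promoter: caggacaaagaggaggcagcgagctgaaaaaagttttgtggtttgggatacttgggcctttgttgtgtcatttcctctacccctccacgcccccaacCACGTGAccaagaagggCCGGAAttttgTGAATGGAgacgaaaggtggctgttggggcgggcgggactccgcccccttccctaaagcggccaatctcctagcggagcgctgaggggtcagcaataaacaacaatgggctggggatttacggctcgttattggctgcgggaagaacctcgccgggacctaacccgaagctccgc
In the DUSP6 window the capitals are the CIC letters read on the other strand, TCCATTGA, at bases 227 to 234 and again at bases 252 to 259 of the 300. The ETV1 window, the second of its 6, holds an MITF match at bases 98 to 104, an ETS match at bases 115 to 120 and a CIC match, TGAATGGA, at bases 126 to 133.

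Of 35116 RefSeq promoter windows of this length, 17.2% held the ETS letters, 3.77% a CIC site, 12.5% the MITF letters, 7.71% the AP-1 letters and 1.85% the cAMP response element. These are shares of single windows. A gene with several windows, such as ETV1 with 6, has more chances of a match than these shares give. Apart from the windows printed, the PHLDA1 window held an ETS match and SPRY2 had an ETS and an MITF match in 1 window. SPRED2 had 2 AP-1 matches in 1 window. ETV1 had an ETS match in 2 further windows, which overlap and share the same matched bases, and an MITF match in 1 other window. No listed letters were found in the SPRY4 and SPRED1 windows. The capitals are matches of letters, and gene-level counts do not tell which annotated start was in use.

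The 10 genes did not move as a block. In the libraries labelled HDAC8, DUSP4, DUSP6, SPRY4 and PHLDA1 fell by 13.9% to 24.2%, SPRED2 and ETV1 rose by 15.1% and 30.7%, and SPRY2, SPRED1, ETV4 and ETV5 did not pass the test. Both phosphatases were lower, whereas the Sprouty, SPRED and PEA3 families each held members with different calls. With edgeR's quasi-likelihood test and a Benjamini-Hochberg adjusted p below 0.05 over all 16195 genes, 4 of the 10 were lower, beside 11.7% of all tested genes, and 2 were higher, beside 11.1%. The members are abundant genes, and among the 3392 tested genes at or above the mean CPM of the lowest member the shares were 20.1% lower and 19.3% higher. None of the 10 reached an absolute log2 fold change of 0.58 (about 1.5 times), the size used in the study's methods, while 3.45% of tested genes fell and 4.07% rose by at least that much with an adjusted p below 0.05. The CPM values of the labels did not overlap for 8 members, 4 with HDAC8 below EV, beside 19.4% of tested genes, and 4 with HDAC8 above EV, beside 18.7%. The median log2 fold change was 0.01 over the members and 0.01 over all tested genes. The summed CPM of the 10 lay between 2807 and 2928 in the EV libraries and between 2645 and 2694 in the libraries labelled HDAC8. In RNA from whole cultures, fewer cells expressing a gene and less RNA per cell cannot be told apart.

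**Figure D1:**
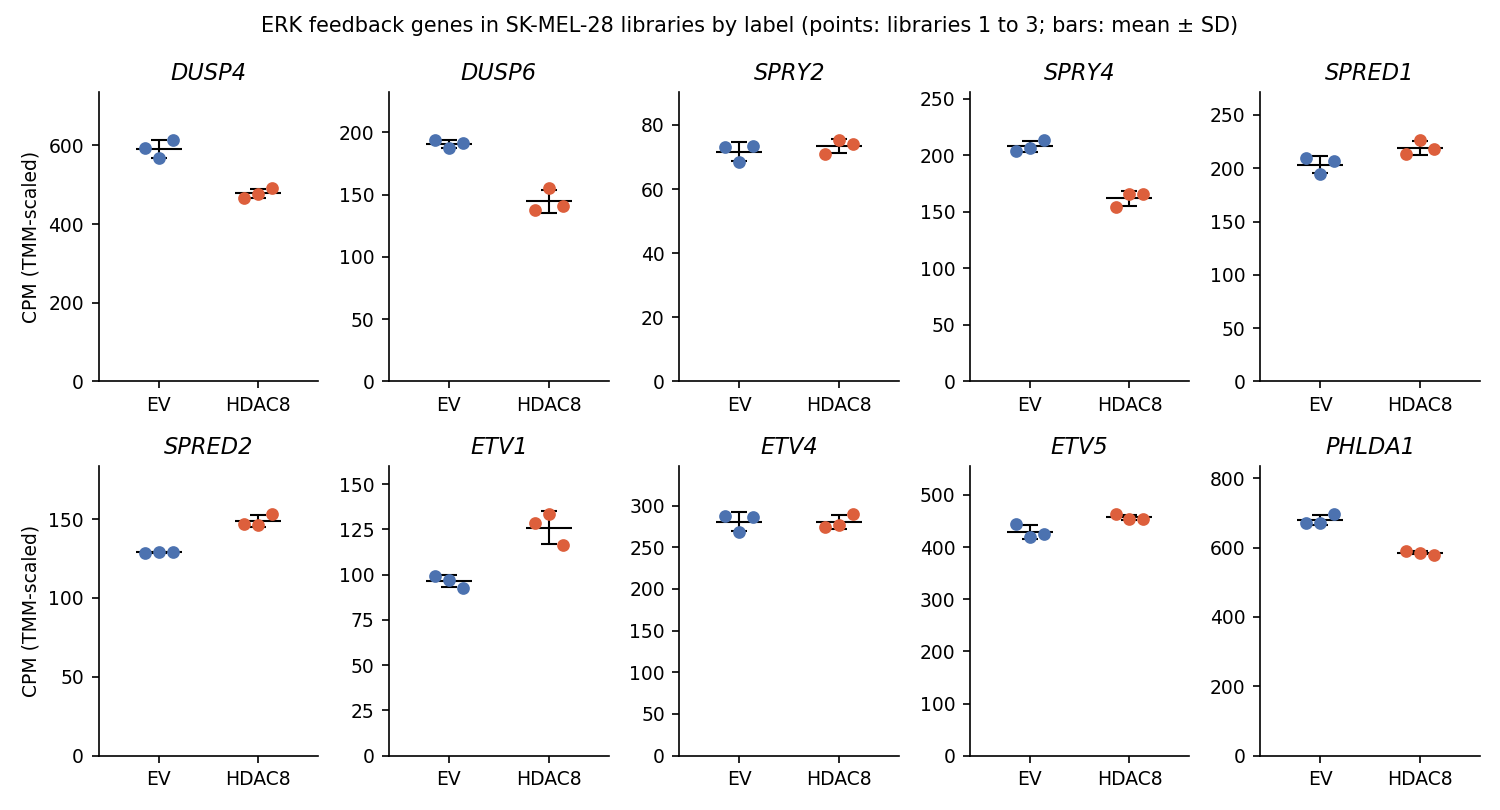
TMM-scaled CPM (vertical axes, each starting at 0) of the 10 member genes in the 3 EV (blue) and 3 HDAC8 (orange) libraries, with a point per library in replicate order and bars for the mean ± SD. DUSP4, DUSP6, SPRY4 and PHLDA1 lie lower in every library labelled HDAC8 than in any EV library, SPRED1, SPRED2, ETV1 and ETV5 lie higher, and SPRY2 and ETV4 overlap.

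The phosphatases were examined first, since they act on ERK directly. DUSP4 (ENSG00000120875, chr8:29333064-29350684, GRCh38, minus strand), the nuclear phosphatase of the pair, had 592, 567 and 613 CPM in EV replicates 1 to 3 and 467, 477 and 491 CPM in HDAC8 replicates 1 to 3. The highest library labelled HDAC8 lay well under the lowest EV library. The mean fell from 591 ± 23.1 CPM to 478 ± 11.8 CPM (SD, n = 3 each), a log2 fold change of -0.30 ± 0.044 (SE; edgeR adjusted p = 0.000392), with a 95% interval from -0.40 to -0.21. DUSP6 (ENSG00000139318, chr12:89347235-89352501, minus strand), the cytoplasmic ERK phosphatase whose promoter carries the paired CIC letters printed above, had 194, 187 and 192 CPM with EV and 138, 155 and 141 CPM with the HDAC8 label. Again no library of one label reached the range of the other. Its mean went from 191 ± 3.29 to 145 ± 9.20 CPM (SD, n = 3 each), and its log2 fold change of -0.40 ± 0.053 (SE; edgeR adjusted p = 0.000210) was the lowest of the 10, at percentile 75.8 of the absolute log2 fold changes of all tested genes. The coefficient of variation of DUSP6 was 1.72% in EV, near the 1.52% that counting alone gives, and 6.36% in the libraries labelled HDAC8, where counting gives 1.69%. The ratio of DUSP4 to DUSP6 counts was 3.06, 3.03 and 3.20 in EV and 3.39, 3.07 and 3.48 in the libraries labelled HDAC8. These ratios overlapped (difference of 0.10 in mean log2 ratio, exact two-sided permutation p = 0.2). With 3 libraries against 3 that p cannot fall below 0.1, so the test could not decide whether the falls of the 2 phosphatases differed.

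The Sprouty genes, whose products block receptor signalling to RAS and RAF, parted. SPRY4 (ENSG00000187678, chr5:142310427-142326455, minus strand) had 204, 207 and 213 CPM in EV and 154, 166 and 166 CPM in the libraries labelled HDAC8. All 3 HDAC8 values lay below all 3 EV values, and the mean dropped from 208 ± 4.99 to 162 ± 6.76 CPM (SD, n = 3 each). The log2 fold change of SPRY4 was -0.36 ± 0.048 (SE; edgeR adjusted p = 0.000226). SPRY2 (ENSG00000136158, chr13:80335976-80341126, minus strand), the lowest member by CPM, had 73.3, 68.4 and 73.4 CPM with EV and 71.0, 75.2 and 74.1 CPM with the HDAC8 label. Its values overlapped, at 71.7 ± 2.85 against 73.4 ± 2.20 CPM (SD, n = 3 each). The log2 fold change of SPRY2 was 0.03 ± 0.057 (SE; edgeR adjusted p = 0.736), and the 95% interval allowed anything from a change of -6.12% to one of 11.6%. That interval does not reach the fall of SPRY4. Within libraries, SPRY2 stood at 0.360, 0.331 and 0.344 of the SPRY4 count in EV and at 0.460, 0.454 and 0.446 in the libraries labelled HDAC8. The ratios did not overlap. Their mean log2 rose by 0.39, with an exact two-sided permutation p of 0.1, which is the smallest that 3 libraries against 3 allow, and 0.15 after Benjamini-Hochberg adjustment over the 6 ratios computed.

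Both SPRED genes, which help neurofibromin to switch RAS off, had higher means in the libraries labelled HDAC8, and SPRED2 alone passed the test. SPRED2 (ENSG00000198369, chr2:65310851-65432637, minus strand) had 129 CPM in each EV library and 147, 146 and 153 CPM in HDAC8 replicates 1 to 3. The labels did not overlap, and the EV values were the least spread of any member, with a coefficient of variation of 0.255% where counting alone gives 1.85%. The mean rose from 129 ± 0.330 to 149 ± 3.73 CPM (SD, n = 3 each), a log2 fold change of 0.20 ± 0.046 (SE; edgeR adjusted p = 0.00718). SPRED1 (ENSG00000166068, chr15:38252836-38357249, plus strand) had 209, 194 and 206 CPM with EV and 213, 226 and 218 CPM with the HDAC8 label. Here too no values overlapped, but EV replicate 1 and HDAC8 replicate 1 lay close together. The means were 203 ± 7.96 and 219 ± 6.64 CPM (SD, n = 3 each), and the log2 fold change of 0.11 ± 0.048 had an edgeR adjusted p of 0.138 with an unadjusted p of 0.0453. The SPRED1 to SPRED2 ratio was 1.62, 1.51 and 1.59 in EV and 1.45, 1.55 and 1.43 in the libraries labelled HDAC8. The ratios overlapped (exact two-sided permutation p = 0.2). As that p cannot fall below 0.1 here, the test could not decide whether the pair differed in its change.

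Among the PEA3 factors, ETV1 rose and the other two did not pass the test. ETV1 (ENSG00000006468, chr7:13891229-13991425, minus strand), a lineage factor of some melanocytic and other tumours, had 99.3, 97.2 and 92.7 CPM in EV and 129, 133 and 116 CPM in the libraries labelled HDAC8. Every library labelled HDAC8 lay above every EV library, with replicate 3 the lowest of its label. From 96.4 ± 3.36 CPM the mean rose to 126 ± 8.87 CPM (SD, n = 3 each), and the log2 fold change of 0.39 ± 0.061 (SE; edgeR adjusted p = 0.000677) was the highest of the 10. ETV5 (ENSG00000244405, chr3:186046314-186110318, minus strand) had 443, 418 and 426 CPM with EV and 462, 454 and 454 CPM with the HDAC8 label. Its values did not overlap, at 429 ± 12.8 against 457 ± 4.81 CPM (SD, n = 3 each), but the log2 fold change of 0.09 ± 0.041 had an edgeR adjusted p of 0.150. ETV4 (ENSG00000175832, chr17:43527844-43579620, minus strand) had 288, 268 and 287 CPM in EV and 275, 276 and 289 CPM in the libraries labelled HDAC8. The labels overlapped, with means of 281 ± 11.3 and 280 ± 8.07 CPM (SD, n = 3 each). The fitted change of ETV4 was -0.27%, with a 95% interval from -7.11% to 7.07% (edgeR adjusted p = 0.967), and the sign of so small a value turned with the scaling and with the library left out.

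Set against its relatives within each library, ETV1 had higher ratios with the HDAC8 label, at the smallest p that the design allows. ETV1 stood at 0.345, 0.363 and 0.323 of the ETV4 count in EV and at 0.469, 0.482 and 0.401 with the HDAC8 label. Against ETV5 it stood at 0.224, 0.232 and 0.218 in EV and at 0.278, 0.294 and 0.256 with the HDAC8 label. In neither case did the labels overlap, and the mean log2 ratios rose by 0.39 and 0.29 (exact two-sided permutation p = 0.1 for each, 0.15 adjusted over 6). The ETV4 to ETV5 ratio was 0.650, 0.640 and 0.673 in EV and 0.594, 0.609 and 0.637 with the HDAC8 label. It was lower in all 3 libraries labelled HDAC8 than in any EV library, by 0.09 on the log2 scale (exact two-sided permutation p = 0.1, 0.15 adjusted).

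**Figure D2:**
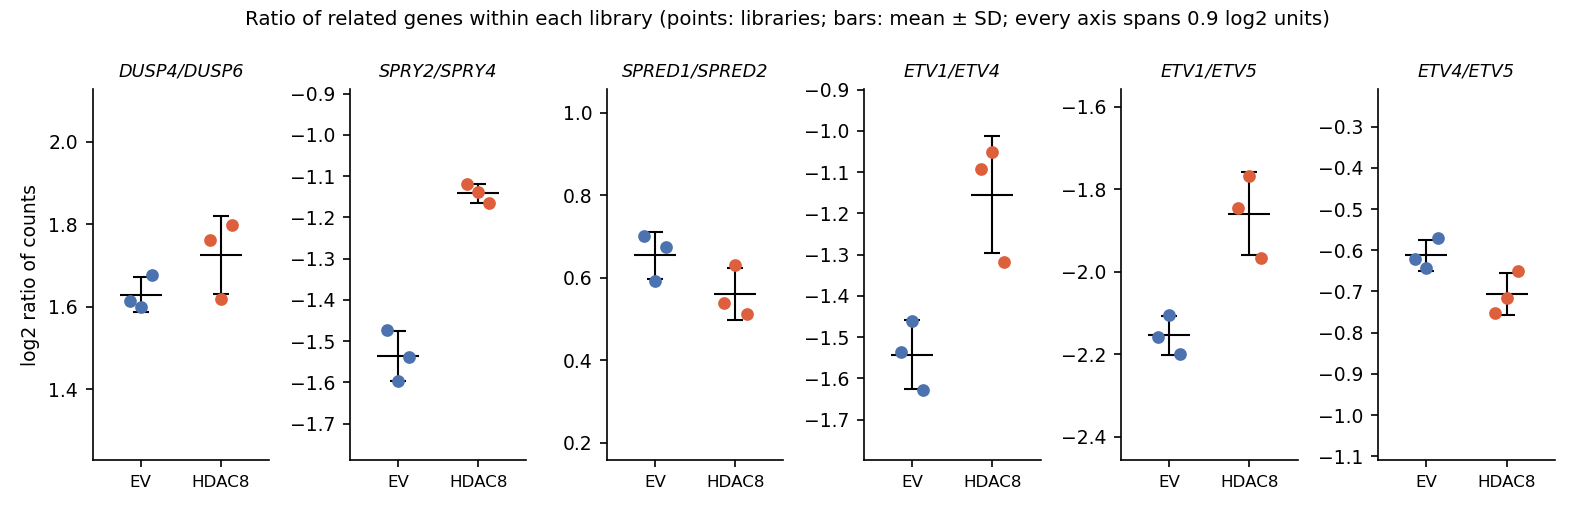
Log2 ratio of the counts of 2 related genes within each library (vertical axes, each spanning the same range of log2 units), with a point per library in replicate order and bars for the mean ± SD in EV (blue) and HDAC8 (orange). SPRY2/SPRY4, ETV1/ETV4 and ETV1/ETV5 are higher in every library labelled HDAC8, ETV4/ETV5 is lower, and DUSP4/DUSP6 and SPRED1/SPRED2 overlap.

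PHLDA1 (ENSG00000139289, chr12:76025447-76031776, minus strand), a pleckstrin-homology-like protein induced by ERK and tied to feedback at receptor tyrosine kinases, was the most abundant member. It had 671, 671 and 695 CPM in EV and 589, 585 and 580 CPM in the libraries labelled HDAC8. The labels lay far apart next to the spread within them. The coefficient of variation was 2.09% in EV, where counting alone gives 0.804%. With the HDAC8 label it was 0.800%, where counting gives 0.839%. The mean fell from 679 ± 14.2 to 585 ± 4.68 CPM (SD, n = 3 each), a log2 fold change of -0.22 ± 0.039 (SE; edgeR adjusted p = 0.00182).

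**Figure D3:**
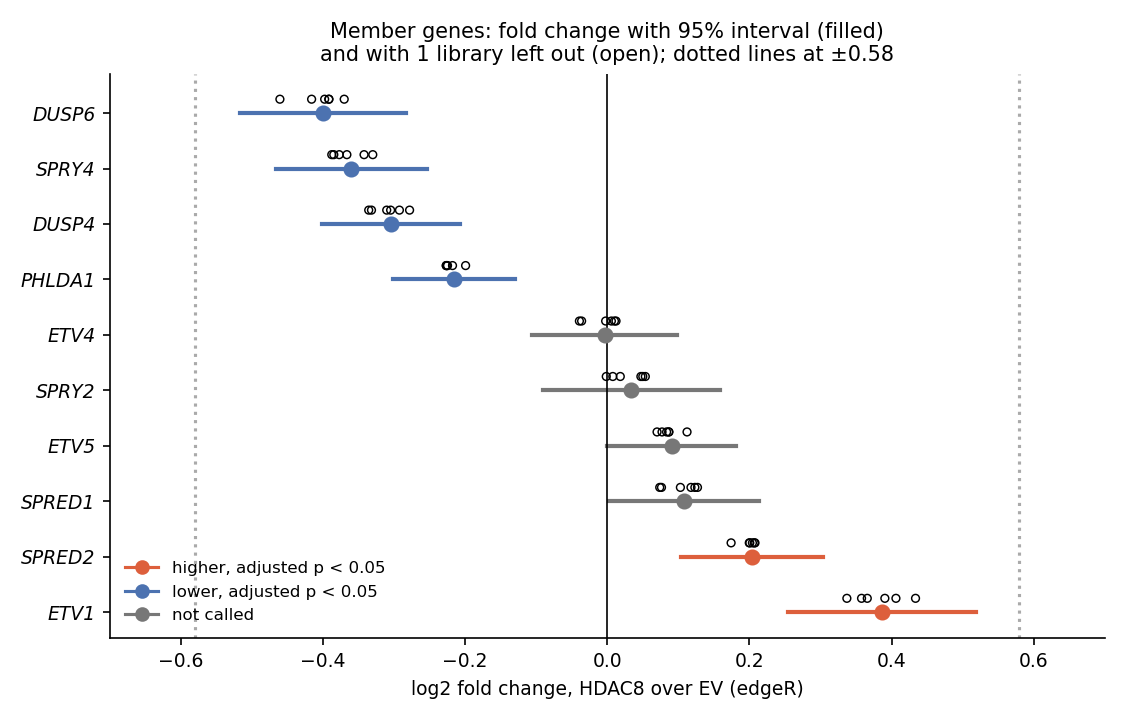
Log2 fold change of HDAC8 over EV (horizontal axis) for each member, with filled points and bars for the edgeR estimate and its 95% interval, open circles for the estimate with 1 library left out, and dotted lines at an absolute value of 0.58. DUSP6 lies lowest at -0.40 and ETV1 highest at 0.39, and every open circle of the 6 called members stays on its own side of 0.

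No member call rested on 1 library or on the tool. Over 11 other fits, including DESeq2, other scalings and filters, and each library left out, the highest adjusted p was 0.00273 for DUSP6, 0.00330 for SPRY4, 0.00521 for DUSP4, 0.00805 for ETV1, 0.0189 for PHLDA1 and 0.0380 for SPRED2. In the same fits the adjusted p of SPRED1 ranged from 0.0811 to 0.397 and that of ETV5 from 0.0901 to 0.411, with log2 fold changes above 0 throughout.

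Levels were compared between members as CPM per kilobase of merged exons (GENCODE 44). In EV, PHLDA1 was highest at 115 CPM per kb, followed by DUSP4 at 81.2, ETV4 at 79.9, ETV5 at 74.3, DUSP6 at 49.5, SPRY4 at 31.7, SPRED1 at 26.2, SPRED2 at 23.5, SPRY2 at 22.3 and ETV1 at 10.05 CPM per kb. The ranges of neighbours in this order overlapped for DUSP4 with ETV4 and for ETV4 with ETV5. With the HDAC8 label, PHLDA1 at 98.9 CPM per kb was still first and ETV1 at 13.1 last, but DUSP4 at 65.8 stood below ETV4 at 79.7 and ETV5 at 79.1, and SPRY4 at 24.7 stood below SPRED1 at 28.3 and SPRED2 at 27.0 CPM per kb. There the ranges of ETV4 and ETV5 and of SPRED1 and SPRED2 overlapped. By mean CPM over the 6 libraries, the members lay between percentiles 79.1 (SPRY2) and 99.1 (PHLDA1) of all tested genes.

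Some of these genes share exonic sequence with another gene. DHX8, on the opposite strand, overlaps exons of ETV4 and had 26.2% to 29.9% as many counts as ETV4. An antisense RNA (ENSG00000274021) overlaps DUSP6, with 2.70% to 5.69% of its counts, and DGKG overlaps ETV5 on the same strand, with 2.41% to 3.49%. Reads shared between genes were split by RSEM, the counting tool, and 5 of the 6 DUSP6 counts, 1 each for ETV5 and PHLDA1 and 0 for the other 7 members were not whole. The kit named in the labels keeps strand, but the study's Methods name a different kit, and whether the counting used strand is not stated. The part of these overlaps in the member counts was not tested.

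Each member was set beside its neighbours on the chromosome. The median log2 fold change of the 20 nearest tested genes lay between -0.23 and 0.28 for the 10 members. DUSP6 fell by 0.40 on the log2 scale while its neighbours had a median of 0.28, and 8 of the 20 were higher and 0 lower. With 50 neighbours that median was 0.05, with 12 higher and 6 lower. The shares over all tested genes were 11.1% higher and 11.7% lower. ETV1, with a log2 fold change of 0.39, had a neighbour median of 0.07 with 5 of 20 higher, SPRY4 at -0.36 one of 0.04, DUSP4 at -0.30 one of -0.03, and SPRED2 at 0.20 one of -0.09. With 50 neighbours these medians were 0.04 for ETV1, -0.07 for SPRY4, -0.03 for DUSP4 and -0.04 for SPRED2. The neighbours of ETV5 had a median of -0.23, with 7 of 20 lower, against 0.09 for ETV5 itself. Those of SPRY2 had a median of -0.14, with 6 of 20 lower and 3 higher, against 0.03 for SPRY2. With 50 neighbours, 19 were lower and 0 higher for ETV5, and 18 lower and 3 higher for SPRY2. PHLDA1, at -0.22, lay within the quartiles of its 20 neighbours, which were -0.35 and 0.14. DNA copy number was not analysed here.

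**Figure D4:**
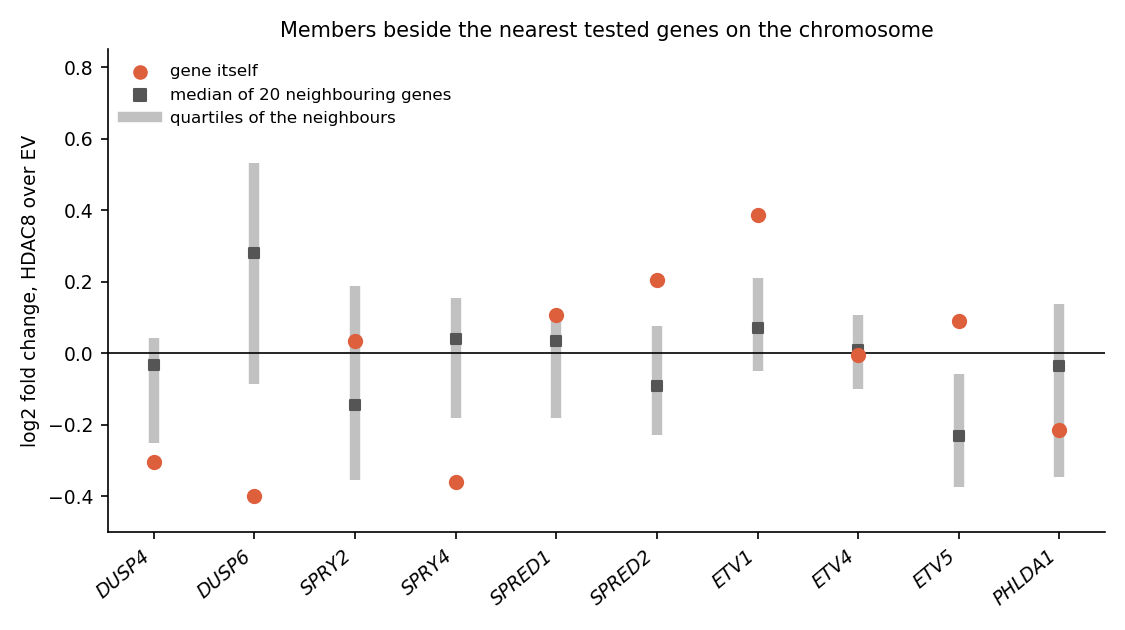
Log2 fold change of HDAC8 over EV (vertical axis) of each member (orange circles), beside the median (grey squares) and quartiles (grey bars) of the 20 nearest tested genes. DUSP4, DUSP6 and SPRY4 lie below the quartiles of their neighbours and SPRED1, SPRED2, ETV1 and ETV5 above them.

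Other genes of the same pathway, from lists by role, also moved in both directions. Of 8 further MAPK phosphatases, 6 were tested, 1 was higher and 2 were lower, beside 11.1% and 11.7% of all tested genes, with a median log2 fold change of -0.12 beside 0.01. DUSP10, which acts mainly on stress kinases, fell from 92.3 ± 1.72 to 76.2 ± 3.22 CPM (SD, n = 3 each), and DUSP1, an immediate early phosphatase, from 19.7 ± 2.39 to 14.7 ± 0.635 CPM, with log2 fold changes of -0.28 and -0.42 (edgeR adjusted p = 0.00330 and 0.0141). The call of DUSP1 was lost without EV replicate 1 (adjusted p = 0.0771) or EV replicate 3 (0.0695). DUSP9 rose from 3.41 ± 0.826 to 6.20 ± 1.30 CPM, with a log2 fold change of 0.86 ± 0.24 (SE; edgeR adjusted p = 0.0210). That call was lost with the replicate number as a block (adjusted p = 0.0508) and without EV replicate 2 (0.0782), EV replicate 3 (0.0878), HDAC8 replicate 2 (0.0689) or HDAC8 replicate 3 (0.0643). DUSP2 and DUSP8 were too low to be tested, with at most 29 and 7 counts in a library.

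Of the 3 other Sprouty and SPRED genes, 1 was higher and 0 lower, beside 11.1% and 11.7% of all tested genes. Their median log2 fold change was -0.25, beside 0.01 over all tested genes. With 3 genes that median is the value of SPRED3 alone, which was not called (-0.25 ± 0.23, SE; edgeR adjusted p = 0.509). SPRY1 rose from 26.03 ± 1.82 to 33.6 ± 1.15 CPM (SD, n = 3 each), a log2 fold change of 0.37 ± 0.077 (SE; edgeR adjusted p = 0.00493). Of the Sprouty genes, SPRY1 was thus higher, SPRY4 lower and SPRY2 not called. SPRY3, at 2.46 and 1.62 CPM, had the lowest log2 fold change of the list, -0.60 ± 0.32 (edgeR adjusted p = 0.216).

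Among 18 other ERK output genes, 17 were tested, 7 were lower and 2 higher, beside 11.7% and 11.1% of all tested genes, with a median log2 fold change of -0.18 beside 0.01. Of tested genes at or above the level of the lowest member, 20.1% were lower and 19.3% higher, and the list holds genes on both sides of that level. With the fold threshold added, 4 genes of the list were lower and 1 higher, beside 3.45% and 4.07% of all tested genes. FOSL1, an AP-1 subunit whose protein ERK stabilises, had 15.9, 16.5 and 19.9 CPM in EV and 10.2, 10.8 and 7.85 CPM in the libraries labelled HDAC8, and its values did not overlap. The log2 fold change of FOSL1 was -0.86 ± 0.14 (SE; edgeR adjusted p = 0.000821). HMGA2, a chromatin protein of mesenchymal and embryonic cells, fell from 145 ± 5.48 to 71.9 ± 2.76 CPM (SD, n = 3 each), and EGR2, an immediate early zinc-finger factor, from 5.35 ± 0.875 to 2.55 ± 0.445 CPM. Their log2 fold changes were -1.02 ± 0.054 and -1.08 ± 0.23 (SE; edgeR adjusted p = 9.39e-08 and 0.00528). CXCL8, a neutrophil chemokine, had 20, 11 and 14 counts with EV against 4, 1 and 2 with the HDAC8 label, with no overlap. At these counts its call (edgeR adjusted p = 0.00815) was lost without EV replicate 1 (0.0654) or HDAC8 replicate 2 (0.0502). EPHA4, an ephrin receptor, rose from 18.1 ± 1.70 to 76.8 ± 4.75 CPM, which was 4.25 times (log2 fold change of 2.09 ± 0.082, SE; edgeR adjusted p = 8.46e-09). CCND1, UPP1 and LIF were lower and IER3 higher by less than the fold threshold, and the immediate early genes EGR1, EGR3, FOS, IER2 and MYC were not called. The call of LIF was lost without EV replicate 1, EV replicate 3 or HDAC8 replicate 2 (adjusted p = 0.0640, 0.0684 and 0.0662).

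**Figure D5:**
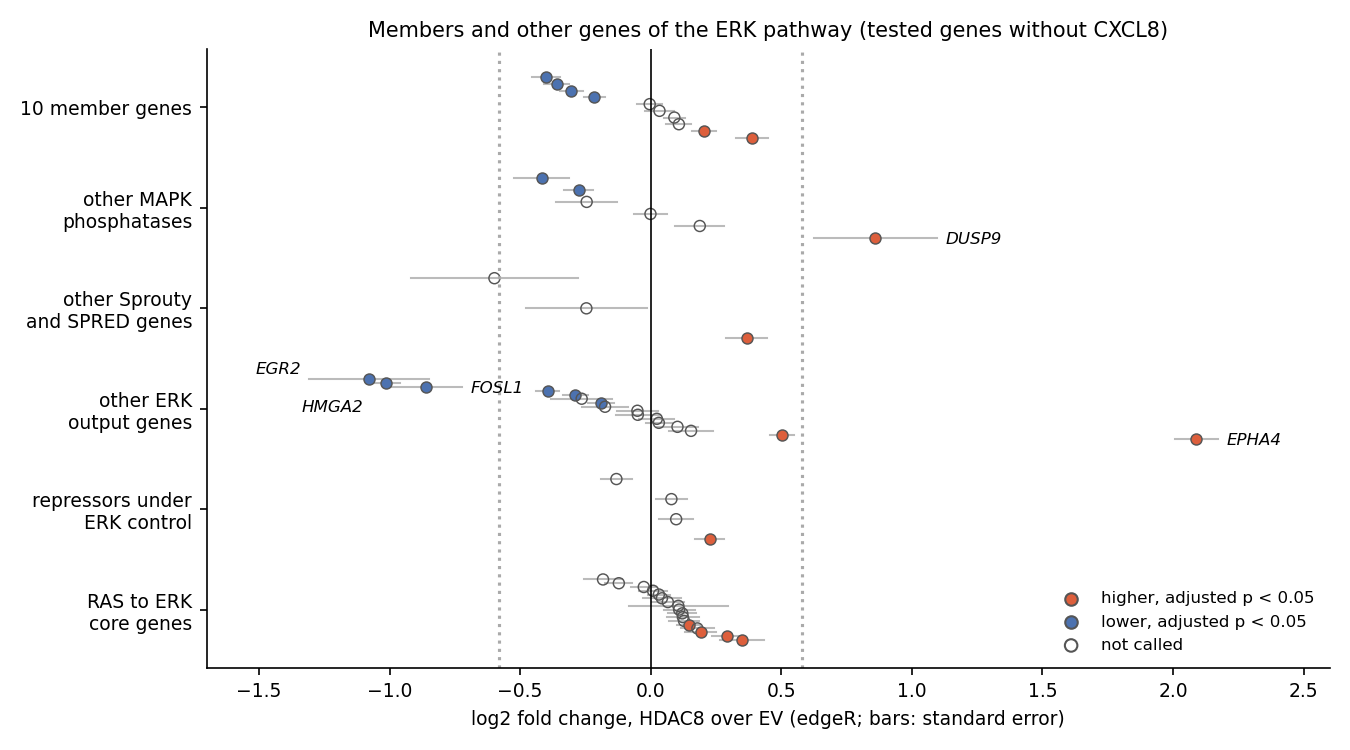
Log2 fold change of HDAC8 over EV (horizontal axis, bars for the standard error) of the tested genes of the member list and of 5 other lists of the ERK pathway, filled where the edgeR adjusted p was below 0.05 and named where the absolute value also reached 0.58 (dotted lines). CXCL8 is left out because of its low counts, and the members lie between -0.40 and 0.39 while EPHA4 stands at 2.09 and EGR2 at -1.08.

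Of 4 genes listed as transcriptional repressors under ERK control, 1 was higher and 0 lower, beside 11.1% and 11.7% of all tested genes. ATXN1, a partner of CIC, had a log2 fold change of 0.23 ± 0.056 (SE; edgeR adjusted p = 0.0123), a call lost without EV replicate 1 (0.0530), EV replicate 3 (0.0502) or HDAC8 replicate 2 (0.0585). CIC, whose letters stand in the DUSP6 and ETV1 promoters printed above, had 109 ± 2.80 CPM in EV and 99.4 ± 6.66 CPM in the libraries labelled HDAC8 (SD, n = 3 each), with overlapping values and a log2 fold change of -0.13 ± 0.059 (SE; edgeR adjusted p = 0.140).

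Of 17 core genes from RAS to ERK, 4 were higher and 0 lower, with a median log2 fold change of 0.11 beside 0.01. Of all tested genes 11.1% were higher, and 19.3% of those at or above the level of the lowest member. The 4 were HRAS, SHOC2 and the RAS inactivators NF1 and RASA1, with log2 fold changes between 0.15 and 0.35. Of these, the call of RASA1 held in all 11 other fits, that of HRAS was lost without HDAC8 replicate 2 (adjusted p = 0.0543), and those of NF1 and SHOC2 were lost in 6 and 8 of the 11. NF1 lost its call with no filter, with the replicate block and without EV replicate 1, 2 or 3 or HDAC8 replicate 2 (adjusted p up to 0.102), and SHOC2 in the same fits, with DESeq2 and without HDAC8 replicate 1 (up to 0.145). RASA2 had the lowest value of the list, a log2 fold change of -0.18 ± 0.075 (SE; edgeR adjusted p = 0.106), and was called lower only without HDAC8 replicate 3 (0.0338). The kinases BRAF, MAP2K1 and MAPK3 were not called, with log2 fold changes of 0.07, 0.13 and 0.04 (edgeR adjusted p = 0.504, 0.145 and 0.735). RNA levels do not report the activity of these kinases, and phosphorylated ERK was not analysed here.

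Melanocyte lineage markers other than TYRP1 had at least 1375 counts in every library, and most of them moved with the labels. Of 7 markers, 4 were higher (PMEL, SOX10, TYR and TYRP1) and 2 lower (DCT and MITF). Of all tested genes 11.1% were higher and 11.7% lower. Among those at or above the level of the lowest member, 19.3% were higher and 20.1% lower. TYRP1 had 5, 12 and 9 counts in EV and 46, 31 and 19 with the HDAC8 label. Its call was lost without EV replicate 1 or 3 or HDAC8 replicate 1 or 2 (edgeR adjusted p = 0.0817 to 0.102). The call of MITF was lost with the replicate block (0.0824) and without EV replicate 1 (0.0878) or 3 (0.117). The summed level of the 7 markers was 6376 to 6761 CPM in EV and 7412 to 7937 CPM with the HDAC8 label. Most of it came from PMEL, which rose from a mean of 4149 to 5254 CPM, while DCT fell from 233 to 68.3 CPM. Fibroblast markers summed to 42.3 to 44.5 CPM in EV and 53.6 to 58.7 CPM with the HDAC8 label, where LUM gave most of the sum and COL1A2 had 0 or 1 count. Endothelial markers summed to at most 3.70 CPM, leukocyte markers to at most 28.2 CPM, nearly all from CD68 and with CD3E at 0 in every library, and epithelial markers to at most 0.244 CPM. The part of these differences in the member values was not tested.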

How the data were processed

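The authors deposited RSEM estimated counts (expected counts) per Ensembl gene, not normalized; reads had been trimmed with Trimmomatic and aligned with STAR, and the submitters' processing notes name GRCh38. The annotation and strand setting are not given in the sources used here, and the labels and the Methods name different RNA and library kits. A second deposited table, holding the authors' own fold changes and p-values, was not used. Groups were taken from the labels.

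Counts were rounded (5351 to 5685 of 60504 values per library were not whole, since RSEM divides shared reads). In R 4.3.3, edgeR 4.0.16 (filterByExpr, TMM, glmQLFit, glmQLFTest, no block) compared HDAC8 with EV, with Benjamini-Hochberg adjustment over 16195 genes calling genes at an adjusted p below 0.05 and, where stated, an absolute log2 fold change reaching 0.58. Standard errors were derived from the fold change and its F statistic. Ratios of related genes used a pseudocount of 0.5 counts and an exact two-sided permutation test. Neighbours were the 10 nearest tested genes on each side (GENCODE 44). Intervals from counting cover counting error only.

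The members and lists were chosen with earlier results of these data known. Genes named were the 10 members, HDAC8, BRAF, MAP2K1, MAPK3, genes of the other lists past both thresholds, and the highest and lowest of each list. The other list genes were named after their values were seen. Of the core list, 2 genes are not reported here and are left out of its counts. Alternatives were DESeq2 1.42.0, upper-quartile scaling, no filter on low counts (30137 genes), a minimum of 10 counts in each library (14402 genes), the fold threshold, the replicate block, each library left out, ratios without a pseudocount and 50 neighbours. The steps were tested on simulated data. There edgeR recovered 86 of 100 genes changed by 1 on the log2 scale and 70 of 100 changed by 0.58. Of the unchanged genes, 9 were called. Changes as small as those of the members were not simulated.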

Additional observations from a re-analysis of the deposited data

How the results depend on the processing

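Of 110 member fold changes recomputed under 11 other fits, 105 kept their direction and their side of the threshold, and 5 changed sign, all in SPRY2 and ETV4, which were not called in any fit. The log2 fold change of ETV4 was 0.0044 with upper-quartile scaling and -0.039 to 0.012 with 1 library left out, and that of SPRY2 was -0.0015 to 0.054 with 1 library left out. With the fold threshold added, 0 members were higher and 0 lower, and over all genes 659 were higher and 559 lower. Among the other lists that threshold left 1 MAPK phosphatase, 0 Sprouty and SPRED genes, 1 ERK output gene, 0 repressors and 0 core genes higher. In the lower direction it left 0 MAPK phosphatases and 4 ERK output genes. With no filter on low counts 2 core genes were higher. With the replicate number as a block 0 MAPK phosphatases and 2 core genes were higher, while the member counts stayed at 2 higher and 4 lower, and DUSP6 had a log2 fold change of -0.40 (adjusted p = 0.00137). Same-numbered libraries did not deviate together from the means of their labels (correlations of -0.0418, -0.107 and -0.0835). These values do not tell whether libraries of the same number were prepared together. With 1 library left out, the counts ranged from 0 to 1 higher and 1 to 3 lower for MAPK phosphatases, 0 to 1 higher for repressors, and 1 to 4 higher and 0 to 1 lower for core genes, and over all genes from 1270 to 1999 higher and 1289 to 2119 lower. The causes of these shifts were not tested. The ratio differences of related genes kept their sign without the pseudocount and without any 1 library. The 3 libraries of a label cannot give an exact p under 0.1, so the ratio tests could not pass the threshold. The scalings moved the median of all genes by less than 0.1 on the log2 scale.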
